A study of Mus musculus with 12 samples.

Results

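The diet by stage difference asks whether a selenium-deficient diet alters gene expression by the same amount at neighbouring steps of red cell development. It was measured here on all 12 arrays of the series, as the diet effect in basophilic erythroblasts minus the diet effect in proerythroblasts. A diet effect is the mean log2 expression on the deficient diet minus that on the adequate diet, so a unit of log2 is a doubling. All mice were male. Their diet had contained adequate selenium or too little of it for 3 months when they received phenylhydrazine, which destroys red cells and forces the spleen to make new ones. Erythroblasts were sorted from the spleen on day 3 after phenylhydrazine, so every group, the adequate ones included, came from anaemic animals. The 4 groups were adequate proerythroblasts, deficient proerythroblasts, adequate basophilic erythroblasts and deficient basophilic erythroblasts, with 3 arrays each. The labels do not say whether replicates came from separate mice, and the p-values below measure only the spread between these arrays.

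Proerythroblasts are the earliest recognisable red cell precursors and still carry progenitor genes such as Kit, the stem cell factor receptor. Basophilic erythroblasts come next: they divide while they switch on hemoglobin, heme synthesis and the red cell membrane skeleton, and they silence the progenitor genes. Selenium enters selenoproteins, among them the glutathione peroxidases that remove peroxides, and developing red cells are rich in iron and oxygen and so depend on such enzymes.

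Stage markers were read first. In the adequate groups Kit averaged 9.10 in proerythroblasts and 6.34 in basophilic erythroblasts, and Slc4a1, the anion exchanger of the red cell membrane, averaged 11.70 and 13.45. Gata2, a progenitor factor that is known to fall as red cells mature, did not follow that order, at 7.11 and 7.30. The arrays had features that touch every result. Replicate 2 of both basophilic groups stood apart, with background probe medians of 4.19 (adequate) and 4.70 (deficient) against 3.31 to 3.80 on the other 10 arrays. Deficient basophilic replicate 3 is called proerythroblasts in its description but basophilic in its title and cell type; over genes its values correlated at 0.986 with deficient basophilic replicate 1 and at 0.910 with replicate 2 of that group, against 0.962 to 0.969 with the deficient proerythroblast arrays and 0.950 to 0.953 with the adequate ones. It was kept with the basophilic group. Results for the genes described are given without it, or without replicate 2 of both basophilic groups together, where that ends a call. The median within-group standard deviation over genes was 0.31 in deficient basophilic arrays and 0.10 in adequate proerythroblast arrays. The interquartile range of values was 2.17 to 2.49 on basophilic arrays and 2.59 to 2.66 on proerythroblast arrays.

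Of 20129 genes tested, 61 (0.303%) had a diet by stage difference that passed an adjusted p of 0.05 in limma with Benjamini-Hochberg adjustment, 32 of them above 0 (0.159%) and 29 below (0.144%). An unadjusted p under 0.05 was reached by 1842 genes, 9.15% of those tested. Within a single stage, 810 genes (4.02%) passed for the diet effect in proerythroblasts and 4 genes (0.0199%) in basophilic erythroblasts. The proerythroblast calls split into 255 that rose (1.27%) and 555 that fell (2.76%) on the deficient diet, and the basophilic calls into 2 and 2 (0.00994% each).

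The genes were sorted by whether the 3 deficient arrays lay wholly above or below the 3 adequate ones in each stage. Of the 61 genes, 43 had diets apart in proerythroblasts and overlapping in basophilic erythroblasts, and these are called lost below. Another 10 were apart in both stages but in opposite directions, and 8 were apart in both stages in the same direction, all with the smaller effect in basophilic erythroblasts. None was apart only in basophilic erythroblasts. Over all genes tested these classes held 28.0% (lost), 0.79% (opposite), 2.3% (same direction) and 4.95% (apart only in basophilic erythroblasts), so the diets were apart in 31.1% of genes in proerythroblasts and in 8.04% in basophilic erythroblasts. Since the class and the difference use the same arrays, the classes describe the 61 genes and are not further evidence for them.

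**Figure D1:**
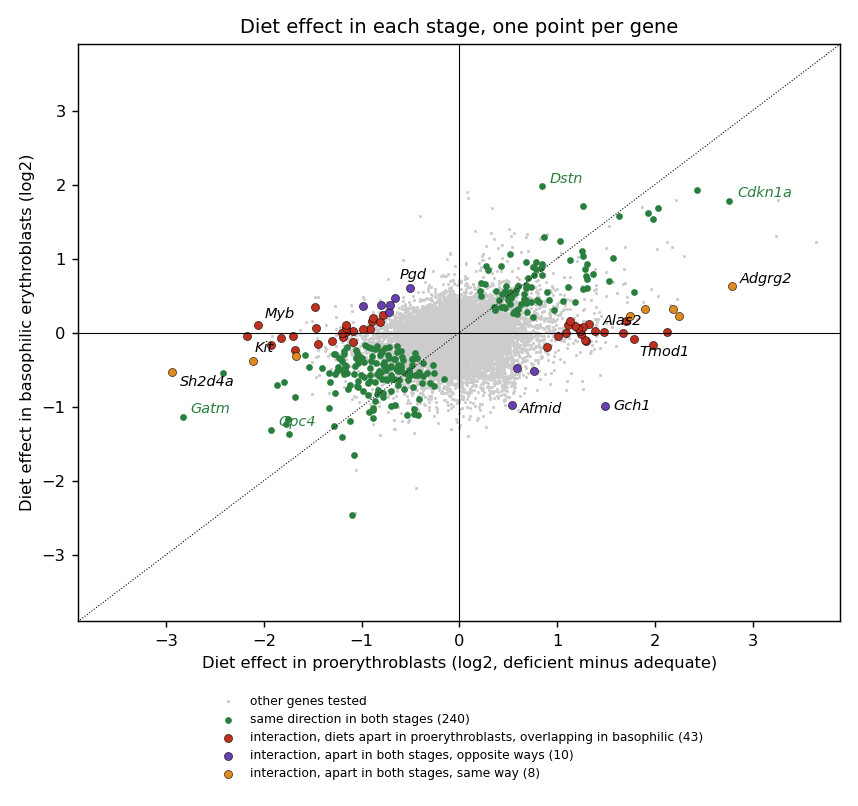
Diet effect (log2, deficient minus adequate) of each tested gene in proerythroblasts (horizontal) and basophilic erythroblasts (vertical); the dotted diagonal marks equal effects. The 61 genes with a diet by stage difference lie closer to the horizontal axis than to the diagonal, or across that axis from the diagonal. The 2 effects have the same sign in 30 of them and opposite signs in 31. The 240 genes in green lie on the same side of 0 in both stages.

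Among the 61 genes the median size of the diet effect was 1.25 in proerythroblasts and 0.12 in basophilic erythroblasts. In 50 of them the basophilic effect was under 0.25 times the proerythroblast effect. All but Afmid passed the threshold in proerythroblasts and none passed it in basophilic erythroblasts. The sign of the difference was kept by all 61 under each alternative run, and 12 genes passed in every one of them: Gch1, Cdc25b, Hbq1b, Hbq1a, Tmod1, E2f2, Ptp4a3, Sh2d4a, Myb, Kit, Prelid2 and Slc25a37. Leaving out deficient basophilic replicate 3 kept 31 of the 61 past the threshold among 36 genes (0.179%), and quantile normalization kept 21 among 24 (0.119%). Of the other arrays left out singly, deficient basophilic replicate 2 kept all 61 and adequate basophilic replicate 2 kept 21. The fewest, 12 of the 61, passed without deficient proerythroblast replicate 3 or without deficient basophilic replicate 1. Of the genes described below, Alas2, Mcmdc2, Las1l, Naa25, Utp15 and Qtrt1 passed in 1 of these 12 fits. Sox4, Fech, Hsph1, Ranbp10, Slc6a9, Esco2, Rab4a, Nfia and Sfrp4 passed in 2. Without replicate 2 of both basophilic groups all 61 passed among 700 genes (3.48%), and with the replicate number as a block within each stage all 61 passed among 589 (2.93%).

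The progenitor genes Kit and Myb had 2 of the 3 largest differences above 0. Their list held 17 tested genes, of which 3 passed above 0 (Kit, Myb and Sox4; 4 with the block within each stage) and none below, with a median difference of 0.23 against 0.03 over all genes. Kit read 8.97, 9.34 and 8.98 on the adequate proerythroblast arrays and 6.76, 6.88 and 7.12 on the deficient ones. In basophilic erythroblasts it read 6.17, 6.40 and 6.45 on the adequate diet and 6.31, 6.50 and 6.08 on the deficient diet. The diets were thus far apart in proerythroblasts and intermixed in basophilic erythroblasts, where Kit was low on both. Its difference was 2.13 (SE 0.23, limma adjusted p = 0.0051).

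Myb, a transcription factor that holds progenitors in an immature state, gave 8.91, 9.25 and 9.09 on the adequate and 7.09, 6.74 and 7.25 on the deficient proerythroblast arrays. The corresponding basophilic values were 5.62, 5.85 and 5.72 against 6.05, 6.0 and 5.43, so that the diets again overlapped. The difference was 2.15 (SE 0.27, limma adjusted p = 0.00849). Sox4, another progenitor transcription factor, fell by 0.88 in proerythroblasts and was 0.19 higher in basophilic erythroblasts, a difference of 1.08 (limma adjusted p = 0.0464, and 0.0657 under quantile normalization). Cdk6, a G1 kinase of progenitors, came close at 1.46 (limma adjusted p = 0.0613), and passed without replicate 2 of both basophilic groups (limma adjusted p = 0.00726). Because these are bulk samples, fewer cells carrying a transcript and less of it per cell cannot be told apart, here or below.

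Markers of other Kit-bearing cells were examined beside these genes. Of 15 measured markers of mast cells and basophil granulocytes, 5 passed the filter on low values and none passed for the difference. The log2 of their summed linear level ran from 9.72 to 11.39 on adequate and from 9.20 to 10.14 on deficient proerythroblast arrays, which overlap, and from 9.18 to 9.70 over both basophilic groups. Their part in the Kit result was not tested.

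Sh2d4a, which encodes an adaptor with an SH2 domain, gave the largest difference above 0, at 2.41 (SE 0.28, limma adjusted p = 0.00594). It read 8.65, 8.37 and 8.10 on adequate and 5.75, 5.32 and 5.23 on deficient proerythroblast arrays. The basophilic arrays read 6.27, 6.16 and 6.07 against 5.52, 6.0 and 5.40, so a smaller separation of the diets in the same direction remained there. In Itga5, Eng, Cd248 and Sfrp4 the diets were apart in proerythroblasts and overlapped in basophilic erythroblasts, as in Kit. Itga5, the alpha chain of the fibronectin receptor, fell by 1.82 in proerythroblasts and was 0.07 lower in basophilic erythroblasts. Eng, a co-receptor of the TGF-beta family, fell by 1.70 and was 0.04 lower. Cd248, a transmembrane glycoprotein, fell by 1.46 and was 0.06 higher, and Sfrp4, a secreted Wnt modulator, fell by 1.93 and was 0.16 lower. The difference for Itga5 was 1.76 (limma adjusted p = 0.0158); under quantile normalization Eng, Cd248 and Sfrp4 no longer passed, with limma adjusted p of 0.0767, 0.0853 and 0.106.

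Prelid2, Wdsub1, Hsph1 and Nfia were also among the 12 largest differences above 0. Prelid2, of a family of mitochondrial lipid carriers, read 9.35, 9.37 and 9.34 on adequate and 8.09, 7.62 and 7.91 on deficient proerythroblast arrays. In basophilic erythroblasts its adequate arrays read 5.74, 6.34 and 5.94 and its deficient arrays 6.31, 6.37 and 6.38, which overlap narrowly. The difference was 1.83 (SE 0.23, limma adjusted p = 0.00878). Wdsub1, with WD repeats and a U-box, fell by 1.68 in proerythroblasts and was 0.24 lower in basophilic erythroblasts. Hsph1, a large heat shock chaperone, fell by 2.12 and was 0.39 lower, and Nfia, a transcription factor of early erythroid commitment, fell by 1.68 and was 0.31 lower. Nfia, Hsph1 and Wdsub1 did not pass without deficient basophilic replicate 3, with limma adjusted p of 0.0746, 0.0511 and 0.0511. Nfia and Wdsub1 also missed under quantile normalization (limma adjusted p = 0.112 and 0.106).

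Of the 29 genes with a difference below 0, 7 were on the lists for heme synthesis, globins and the red cell membrane. Of 18 tested heme synthesis genes, 3 passed below 0 (Alas2, Slc25a37 and Fech; 5 with the block within each stage) and none above, with a list median of -0.53. In proerythroblasts 6 of the 18 rose (9 with the block within each stage) and none fell. In basophilic erythroblasts none passed in either direction, and the list medians were 0.48 and -0.03. Alas2, the first enzyme of heme synthesis in red cells, read 9.53, 10.19 and 10.19 on adequate and 11.67, 11.47 and 11.78 on deficient proerythroblast arrays. Its basophilic values were 12.55, 12.85 and 12.70 on the adequate diet and 12.52, 12.88 and 12.69 on the deficient diet. The diets thus covered nearly the same range there, and the difference between the stages was -1.67 (SE 0.27, limma adjusted p = 0.0363).

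Slc25a37, the mitochondrial iron importer mitoferrin, rose by 1.29 in proerythroblasts and was 0.11 lower in basophilic erythroblasts, a difference of -1.39 (SE 0.17, limma adjusted p = 0.0074). Fech, which inserts iron into the heme ring, rose by 1.26 and was 0.08 higher, a difference of -1.18 (limma adjusted p = 0.046). Without deficient basophilic replicate 3, Fech and Alas2 no longer passed (limma adjusted p = 0.0632 and 0.0579), while Slc25a37 did (0.00868). Alas2 and Fech also missed under quantile normalization (limma adjusted p = 0.0767 and 0.0916), where Slc25a37 passed (0.00865). Slc6a9, a transporter of glycine, the amino acid from which heme is built, rose by 1.70 in proerythroblasts and was 0.16 higher in basophilic erythroblasts. Its difference of -1.55 had a limma adjusted p of 0.0433, and of 0.0507 without deficient basophilic replicate 3. In the iron list of 23 tested genes, Slc25a37 was the only member past the threshold (4 passed with the block within each stage, all below 0), and the transferrin receptor Tfrc had a difference of -1.0 (limma adjusted p = 0.278).

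Of 6 tested globin genes, 2 passed, both below 0. These were Hbq1a and Hbq1b, neighbouring theta globin copies that are nearly identical, so their probes may read each other's transcripts. Hbq1b read 7.85, 7.95 and 7.87 on adequate and 10.33, 9.74 and 10.34 on deficient proerythroblast arrays. Its basophilic values were 11.47, 11.56 and 11.47 against 11.65, 11.63 and 11.88, still apart but by a much smaller step. The difference was -2.03 (SE 0.23, limma adjusted p = 0.0051), and that of Hbq1a was -1.88 (SE 0.21, limma adjusted p = 0.0051).

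The red cell membrane list had 22 tested genes, 2 past the threshold below 0 (Tmod1 and Slc4a1; 5 with the block within each stage) and none above, with a median of -0.69. Tmod1, which caps the actin filaments of the membrane skeleton, had the smallest standard error of the 12 highest and 12 lowest differences. It read 7.89, 7.81 and 7.69 on adequate and 9.54, 9.54 and 9.67 on deficient proerythroblast arrays. In basophilic erythroblasts it read 10.45, 10.30 and 10.51 against 10.31, 10.26 and 10.42. The diets were 1.79 apart in the first stage and overlapped in the second, and the difference was -1.88 (SE 0.16, limma adjusted p = 0.0022). Slc4a1 rose by 1.39 in proerythroblasts and was 0.02 higher in basophilic erythroblasts, a difference of -1.37 (SE 0.18, limma adjusted p = 0.013). Sptb, the beta chain of spectrin, and Epb42, protein 4.2, had differences of -1.07 and -1.08 that did not pass (limma adjusted p = 0.0695 and 0.106), Sptb passing with the block (0.0207).

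Late maturation genes followed. In a list of 26 tested genes for enucleation and late maturation, Tmod1 and Ranbp10 passed below 0 and none above, and with the block within each stage 7 passed below 0; the list median was -0.42. Ranbp10, which binds the microtubules of maturing cells, rose by 1.21 in proerythroblasts and was 0.06 higher in basophilic erythroblasts. It did not pass without deficient basophilic replicate 3 (limma adjusted p = 0.0632) or under quantile normalization (0.0657). Fhdc1, a formin that links actin and microtubules, rose by 1.98 and was 0.17 lower, a difference of -2.15 (SE 0.35, limma adjusted p = 0.0374). Ppp1r15a, which reverses the eIF2-alpha phosphorylation of the integrated stress response, rose by 1.48 and was 0.01 higher, a difference of -1.47 (SE 0.22, limma adjusted p = 0.0305). It was the only one of 31 tested genes of that response to pass, where the block within each stage gave 3 below 0 and 1 above. Adgrg2, an adhesion G-protein-coupled receptor, rose by 2.79 in proerythroblasts and was 0.62 higher in basophilic erythroblasts, and Ptp4a3, a phosphatase, rose by 1.74 and was 0.23 higher. Their differences were -2.16 (limma adjusted p = 0.0363, and 0.118 under quantile normalization) and -1.52 (0.0051). Adgrg2 had low levels on the adequate diet, 4.33 to 4.63 in proerythroblasts and 4.52 to 4.67 in basophilic erythroblasts. These lie under the 5.3 of the filter on low values. Its deficient basophilic arrays read 5.1, 4.76 and 5.73. Only the deficient proerythroblast arrays, at 6.91, 7.72 and 7.19, lay wholly above 5.3, and without them Adgrg2 would not have been tested.

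**Figure D2:**
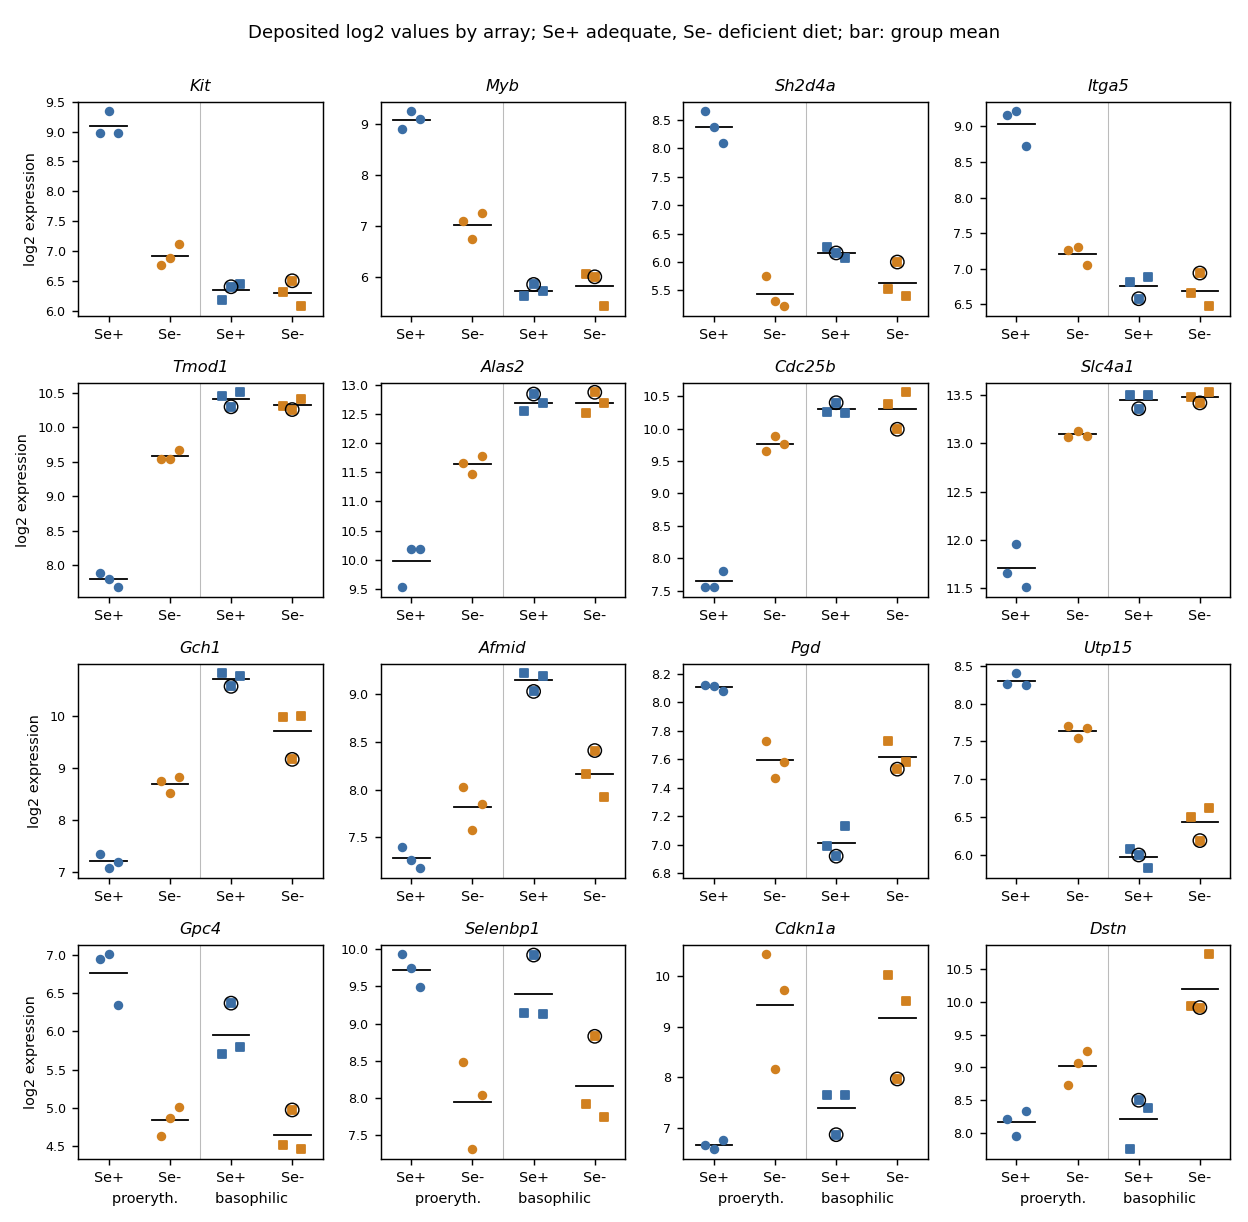
Deposited log2 values of 16 genes on each array (points), with group means (bars), for the adequate (Se+) and deficient (Se-) diets in proerythroblasts (circles, left) and basophilic erythroblasts (squares, right); black rings mark replicate 2 of both basophilic groups. Vertical axes differ between panels and do not start at 0. The upper 8 genes separate the diets in proerythroblasts far more than in basophilic erythroblasts, the next 4 separate them in opposite directions, and the lowest 4 separate them the same way in both.

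Promoter sequences are shown for Alas2 and the stress response gene Ppp1r15a, both with a difference below 0, and for Kit, with one above 0. GATA factors, which bind the letters AGATAA or TGATAA on either strand, are the master regulators of red cell genes. RefSeq promoter windows (GRCm38.p6, from 250 bases before to 50 after the start of transcription) were matched by symbol to 42 of the 61 genes. Either motif was found in 2 of 20 matched genes with a difference below 0 (Alas2 and Ppp1r15a) and in 3 of 22 with one above 0 (Nfia, Adgrl2 and Ppip5k2), beside 11.3% of the windows of all tested genes and 19% of all windows. The matches describe the letters in these windows only. The 250 bases before each start are printed 5′ to 3′ on the gene's strand, with the motif in capitals; TTATCT is AGATAA read on the other strand, and the Kit stretch holds neither form. They lie at chrX:150547167-150547416 (plus strand, Alas2), chr7:45526269-45526518 (minus strand, Ppp1r15a) and chr5:75574737-75574986 (plus strand, Kit).
Alas2: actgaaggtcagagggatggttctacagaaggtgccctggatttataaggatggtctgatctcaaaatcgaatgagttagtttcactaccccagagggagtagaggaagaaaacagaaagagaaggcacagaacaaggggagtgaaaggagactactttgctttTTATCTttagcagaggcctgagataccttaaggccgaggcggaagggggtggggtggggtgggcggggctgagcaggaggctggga
Ppp1r15a: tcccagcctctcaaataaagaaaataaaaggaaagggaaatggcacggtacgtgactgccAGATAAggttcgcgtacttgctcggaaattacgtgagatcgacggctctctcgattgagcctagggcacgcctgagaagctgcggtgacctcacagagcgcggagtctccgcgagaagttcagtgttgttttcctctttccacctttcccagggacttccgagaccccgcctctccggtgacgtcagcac
Kit: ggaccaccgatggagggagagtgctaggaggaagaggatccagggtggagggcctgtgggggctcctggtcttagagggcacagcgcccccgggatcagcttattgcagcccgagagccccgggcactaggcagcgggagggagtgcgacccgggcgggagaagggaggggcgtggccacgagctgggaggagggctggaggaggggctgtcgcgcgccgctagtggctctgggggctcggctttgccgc

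Cell cycle lists had medians below 0 with few single calls. Over all tested genes 8866 of 20129 (44.0%) had a difference below 0 and 11234 above, to be read beside the list counts here and below. Of 54 tested genes of G2 and mitosis, all 54 had a difference below 0 and the median was -0.84, but only Cdc25b passed. Cdc25b, a phosphatase that starts mitosis, read 7.56, 7.56 and 7.81 on adequate and 9.66, 9.88 and 9.76 on deficient proerythroblast arrays. The basophilic arrays read 10.26, 10.40 and 10.24 against 10.38, 9.99 and 10.56, which overlap. Its difference was -2.11 (SE 0.22, limma adjusted p = 0.0051). Over the list the median diet effect was 0.29 in proerythroblasts and -0.52 in basophilic erythroblasts. When replicate 2 of both basophilic groups was left out, the basophilic median was -0.19, the median difference was -0.50 and 15 of the 54 passed below 0. Without deficient basophilic replicate 3 the basophilic median was -0.83. With the block within each stage 6 passed.

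The other cell cycle lists gave like values. Among 27 tested genes of G1 control, E2f2 passed below 0 and none above; with the block within each stage 7 passed below and 1 above. The G1 median was -0.40, and -0.68 without deficient basophilic replicate 3. E2f2, an E2F factor that drives the last erythroid divisions, read 9.08, 9.26 and 8.96 on adequate and 10.84, 11.20 and 10.95 on deficient proerythroblast arrays, and 11.35, 11.37 and 11.43 against 11.62, 11.57 and 11.90 on basophilic arrays. The diets stayed apart in both stages, and the difference was -1.58 (SE 0.20, limma adjusted p = 0.00878). None of the 46 tested S phase genes passed, although 41 were below 0 and their median was -0.66; the block within each stage gave 2, both below 0. None of the 20 tested replication-dependent histones passed either; all 20 were below 0, with a median of -1.06, and H1f2 stood at -1.79 (limma adjusted p = 0.277). With the block within each stage 10 histones passed, and without replicate 2 of both basophilic groups 7 passed. The histone median was 0.67 in proerythroblasts and -0.13 in basophilic erythroblasts, where it was -0.38 without deficient basophilic replicate 3. Members of one histone family are near copies, and their probes may share transcripts.

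Ribosome biogenesis genes lay on the other side of 0. Of 44 tested genes, 42 had a difference above 0, the median was 0.54 and 20 reached an unadjusted p under 0.05, but only Utp15 passed after adjustment. In proerythroblasts 5 of the 44 fell and none rose, and in basophilic erythroblasts none passed. Their median diet effect was -0.42 in the first stage and 0.17 in the second. Utp20, of the same small-subunit processome as Utp15, had a difference of 0.82 (limma adjusted p = 0.0695), and Polr1b, a subunit of RNA polymerase I, one of 1.02 (0.102). Without replicate 2 of both basophilic groups 17 of the 44 passed, all above 0, and with the block within each stage 7 did. That block also gave 19 of the 44 that fell in proerythroblasts. Cytosolic ribosomal proteins, with 33 tested genes and a median difference of 0.11, gave no call.

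Heat shock chaperones shared that direction less evenly. Of 27 tested, Hsph1 alone passed above 0 (3 with the block within each stage) and none below, and the median was 0.27. Fkbp4, a co-chaperone of HSP90, fell by 1.37 in proerythroblasts and was 0.19 lower in basophilic erythroblasts, a difference of 1.18 (limma adjusted p = 0.0537, and 0.0306 without replicate 2 of both basophilic groups). Hspd1, the mitochondrial chaperonin, fell by 0.90 and was 0.13 higher, a difference of 1.03 (limma adjusted p = 0.109).

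**Figure D3:**
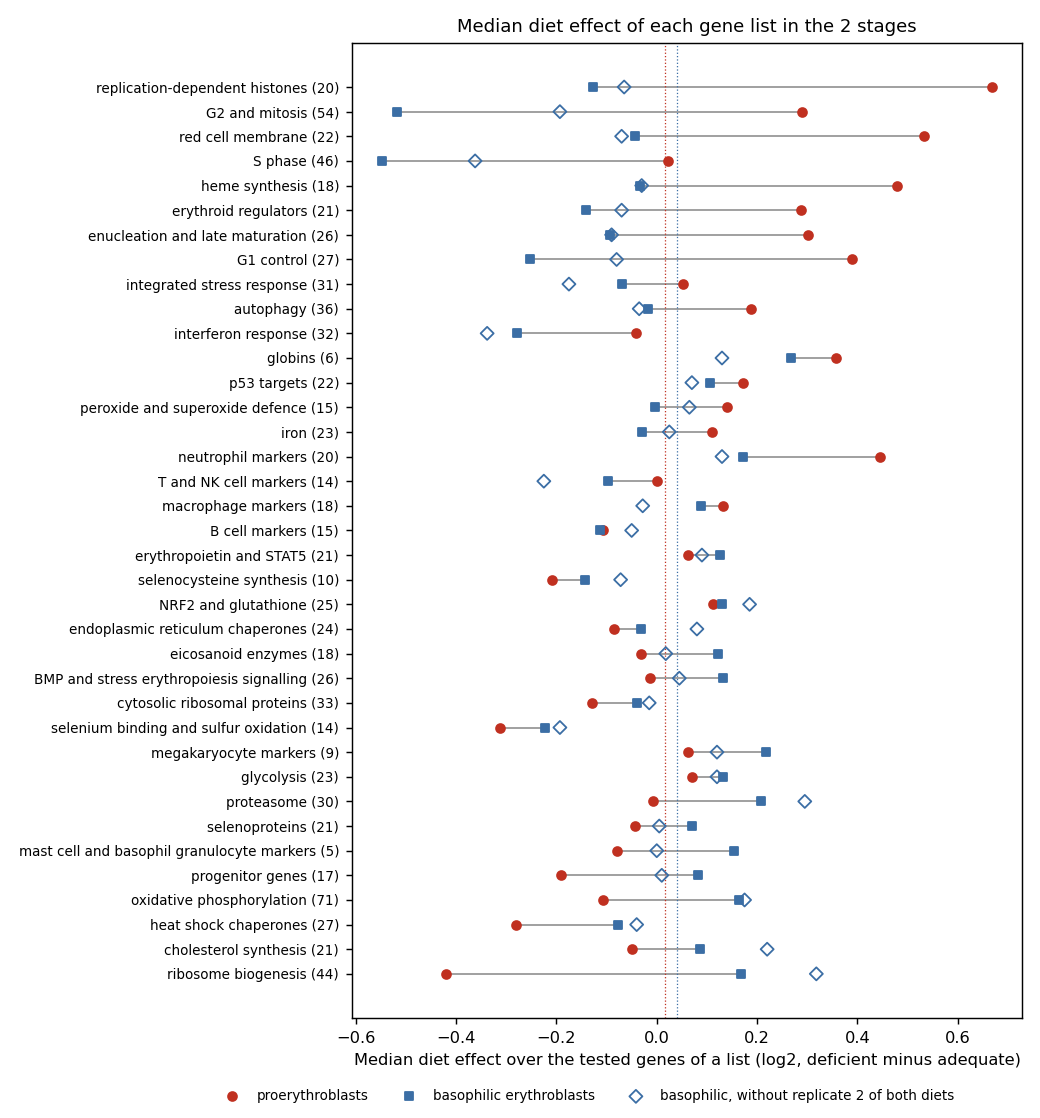
Median diet effect (log2, deficient minus adequate) over the tested genes of each list in proerythroblasts (circles) and basophilic erythroblasts (squares), with the number of tested genes in brackets; open diamonds leave out replicate 2 of both basophilic groups, and dotted lines mark the medians of all tested genes in each stage. Lists are ordered by their median diet by stage difference. The order runs from histones and mitosis genes, whose median diet effect is lower in basophilic erythroblasts than in proerythroblasts. It ends at ribosome biogenesis, whose median diet effect is higher in basophilic erythroblasts.

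The 10 genes with diets apart in opposite directions were Gch1, Afmid, Mcmdc2 and Esco2, higher on the deficient diet in proerythroblasts and lower in basophilic erythroblasts, and Pgd, Utp15, Qtrt1, Naa25, Las1l and Rab4a, the other way round. All 10 passed for the difference, but none passed for the diet effect in basophilic erythroblasts alone. With the block within each stage Gch1, Afmid and Pgd did pass there (limma adjusted p = 0.0157, 0.0179 and 0.037), and the other 7 did not. Gch1, which makes the first step towards the cofactor tetrahydrobiopterin, read 7.34, 7.08 and 7.19 on adequate and 8.75, 8.51 and 8.83 on deficient proerythroblast arrays. In basophilic erythroblasts the adequate arrays read 10.81, 10.56 and 10.75 and the deficient ones 9.97, 9.16 and 10. The gene thus rose by 1.49 on the deficient diet in the first stage and stood 1.0 lower in the second, where the 95% interval of the effect was -1.45 to -0.55 and the limma adjusted p was 0.168. Its difference, -2.49 (SE 0.29, limma adjusted p = 0.00594), was the largest below 0.

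Afmid, a formamidase of tryptophan breakdown, read 7.40, 7.26 and 7.18 on adequate and 8.03, 7.58 and 7.85 on deficient proerythroblast arrays. The order turned in basophilic erythroblasts, with 9.22, 9.03 and 9.19 on the adequate and 8.16, 8.41 and 7.92 on the deficient diet. The diet effects were 0.54 (limma adjusted p = 0.0896) and -0.98 (limma adjusted p = 0.125), and the difference of -1.52 passed (SE 0.22, limma adjusted p = 0.028), though not under quantile normalization (limma adjusted p = 0.145). Esco2, which makes cohesin hold sister chromatids together, and Mcmdc2, of the MCM helicase family, had differences of -1.06 and -1.28 (limma adjusted p = 0.0374 for each), neither of which passed under quantile normalization (0.187 and 0.106). Mcmdc2 also missed without deficient basophilic replicate 3 (limma adjusted p = 0.0636). Mcmdc2 had low levels, 4.33 to 5.61 over the 12 arrays, where a gene was tested if at least 3 arrays reached 5.3.

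Pgd, an NADPH-producing enzyme of the pentose phosphate pathway and a target of the antioxidant factor NRF2, read 8.12, 8.11 and 8.08 on adequate and 7.73, 7.47 and 7.58 on deficient proerythroblast arrays. On the basophilic arrays it read 6.99, 6.92 and 7.13 against 7.73, 7.53 and 7.58. The level on the deficient diet was therefore nearly the same in both stages, while the level on the adequate diet was about 1 unit lower in basophilic erythroblasts. The difference was 1.11 (SE 0.17, limma adjusted p = 0.0305). It was the only one of 25 tested genes of the NRF2 and glutathione list to pass (2 with the block within each stage, both above 0), and the list median was 0.07. Gstp1, a glutathione transferase, ran the same way with a difference of 0.83 (limma adjusted p = 0.0796).

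The remaining genes of this kind serve RNA and protein production or membrane traffic. Utp15 fell by 0.66 in proerythroblasts and was 0.47 higher in basophilic erythroblasts. Qtrt1, which modifies transfer RNA, fell by 0.80 and was 0.38 higher, and Naa25, a subunit of an N-terminal acetyltransferase, fell by 0.71 and was 0.37 higher. Rab4a, a small GTPase of endosome recycling, fell by 0.99 and was 0.35 higher, and Las1l, a factor in ribosome assembly, fell by 0.72 and was 0.28 higher. These 5 did not pass without deficient basophilic replicate 3, where their limma adjusted p ran from 0.0511 (Rab4a) to 0.0768 (Las1l). Nor did they pass under quantile normalization, where it ran from 0.068 (Qtrt1) to 0.145 (Utp15).

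For the 61 genes the deficient proerythroblast mean lay between the adequate proerythroblast mean and the adequate basophilic mean in 56, and beyond the basophilic mean in the other 5. Over all genes tested it lay between them in 62.2%. Among stage genes, Kit averaged 9.10, 6.92, 6.34 and 6.30 in adequate proerythroblasts, deficient proerythroblasts, adequate basophilic and deficient basophilic erythroblasts. Tfrc averaged 9.58, 10.55, 10.73 and 10.69. Myb, Alas2 and Slc4a1 also moved towards the adequate basophilic mean in deficient proerythroblasts. Gata1, the master regulator of red cells, moved only by small steps, at 8.56, 8.64, 8.92 and 8.77. The other stage genes moved slightly away from the adequate basophilic mean. Klf1, a factor that activates adult globin, averaged 10.03, 9.92, 10.40 and 9.77, and Cd44 averaged 8.23, 8.30, 6.62 and 7.25. Epor averaged 10.09, 9.99, 10.66 and 10.04, and Gata2 averaged 7.11, 7.03, 7.30 and 7.46. The means compared here come from arrays that all went into the choice of the 61 genes, so these positions are a description only.

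Genes that kept the diet effect were those that passed for the effect averaged over both stages, did not pass for the difference, and had diets apart the same way in both stages. The averaged effect passed in 515 genes (2.56%), 192 higher (0.954%) and 323 lower (1.6%), and 240 genes (1.19% of those tested) met all conditions, 84 higher and 156 lower. A difference that misses the threshold does not show equal effects: the 95% interval of the difference held 0 in 178 of the 240 and excluded it in 62, and the effect was smaller in basophilic erythroblasts in 171. The median standard error of the difference over these genes was 0.23. All 240 passed again for the averaged effect without replicate 2 of both basophilic groups, and 160 did without deficient basophilic replicate 3. The fewest, 131, did so without adequate proerythroblast replicate 1, and 124 passed in each of the 12 fits that left out an array.

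Genes of selenium binding and sulfur handling were among the lowest kept genes. In their list of 14 tested genes, 4 fell in proerythroblasts and none rose (6 and 1 with the block within each stage). None passed in basophilic erythroblasts (3 lower with that block) or for the difference, and the stage medians were -0.31 and -0.22. Selenbp1, a selenium-binding protein that oxidises methanethiol, read 9.93, 9.75 and 9.49 on adequate and 8.49, 7.32 and 8.04 on deficient proerythroblast arrays. In basophilic erythroblasts it read 9.14, 9.92 and 9.13 against 7.92, 8.83 and 7.75. The deficient arrays were lower in both stages, replicate 2 being the highest of each basophilic group, and the averaged effect was -1.50 (SE 0.24, limma adjusted p = 0.00761). The difference was 0.54, with a 95% interval of -0.51 to 1.60. Its near copy Selenbp2 had an averaged effect of -1.46 (limma adjusted p = 0.00721), and their probes may share transcripts. Suox, the sulfite oxidase, had one of -1.37 (SE 0.22, limma adjusted p = 0.00735), made of -1.08 in proerythroblasts and -1.66 in basophilic erythroblasts.

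Gpc4, a heparan sulfate proteoglycan of the cell surface, read 6.95, 7.01 and 6.34 on adequate and 4.63, 4.86 and 5.01 on deficient proerythroblast arrays. The basophilic arrays read 5.70, 6.37 and 5.80 against 4.51, 4.97 and 4.46. The diets were apart in both stages, with an averaged effect of -1.62 (SE 0.16, limma adjusted p = 0.000825) and a difference of 0.62 (95% interval -0.09 to 1.34). All deficient arrays, at 4.46 to 5.01, lay under the 5.3 of the filter on low values, and all adequate arrays lay above it. At such low levels a fall may be cut short in either stage. The difference for Gpc4 therefore cannot show whether its effect was of equal size in both. C1qtnf12, a secreted C1q-like protein, fell by 1.56 on average (limma adjusted p = 0.00245). Gatm, which makes the creatine precursor, had the lowest averaged effect of the 240 at -1.99 (SE 0.23, limma adjusted p = 0.00207). Its effects were -2.83 in proerythroblasts and -1.14 in basophilic erythroblasts, and the difference of 1.69 passed with the block within each stage (limma adjusted p = 0.0417, against 0.174 without it). Mettl8, a mitochondrial transfer RNA methyltransferase, was likewise uneven, at -2.42 and -0.54, and Snord45b, a small nucleolar RNA, stood at -1.10 and -2.47.

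Of the genes that stayed higher, Cdkn1a, the p21 inhibitor of cell division and a target of p53, had the largest averaged effect. It read 6.67, 6.59 and 6.76 on adequate and 10.43, 8.16 and 9.72 on deficient proerythroblast arrays. The basophilic arrays read 7.65, 6.87 and 7.66 against 10.03, 7.97 and 9.51. Replicate 2 was the lowest deficient array in each stage, and the averaged effect was 2.27 (SE 0.40, limma adjusted p = 0.0117). The other p53 targets did not follow as a list: of 22 tested, 4 rose in proerythroblasts (6 with the block within each stage). None passed in basophilic erythroblasts (1, which rose, with that block), and the medians were 0.17 and 0.11.

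Dstn, which takes actin filaments apart, was one of 4 genes of the 240 past the threshold in basophilic erythroblasts alone. It read 8.22, 7.96 and 8.34 on adequate and 8.73, 9.07 and 9.25 on deficient proerythroblast arrays, and 7.76, 8.50 and 8.38 against 9.94, 9.91 and 10.72 on basophilic arrays. The effect was 0.84 in the first stage (limma adjusted p = 0.0984) and 1.98 in the second (limma adjusted p = 0.0383), and the difference of 1.13 did not pass (limma adjusted p = 0.267). Ankrd36, an ankyrin repeat protein, and Cacna1c, a calcium channel subunit, had averaged effects of 2.18 and 1.85 (limma adjusted p = 0.00276 and 0.00478) with differences of -0.51 and -0.36. Tspan14, a tetraspanin, Acadsb, a mitochondrial acyl-CoA dehydrogenase, and Ifngr2, a chain of the interferon gamma receptor, had averaged effects of 1.61, 1.18 and 1.49. Ifngr2 passed in only 2 of the 12 fits that each left out an array. Il1r2, a decoy receptor for interleukin 1, rose by 1.79 in proerythroblasts and was 0.54 higher in basophilic erythroblasts. Its difference of -1.24 (limma adjusted p = 0.0535) passed with the block within each stage (0.0268) and without replicate 2 of both basophilic groups (0.0302).

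Neutrophil markers were read beside these genes, since neutrophils express Il1r2. All 20 were tested and none passed for the difference; their median diet effects were 0.45 in proerythroblasts and 0.17 in basophilic erythroblasts. The log2 of their summed linear level ran from 11.14 to 12.82 on adequate and from 11.68 to 12.69 on deficient proerythroblast arrays, and from 10.49 to 10.83 against 10.74 to 11.07 on basophilic arrays. Their part in these results was not tested. The lists for macrophages, megakaryocytes, B cells, and T and NK cells gave no call for the difference either, with medians from -0.06 to 0.13.

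The 810 genes called in proerythroblasts were followed into the basophilic arrays. The basophilic effect comes from other arrays, but the calls used a variance estimated over all 12; with the proerythroblast arrays alone limma called 2419 genes. Of the 255 that rose, 175 were above 0 in basophilic erythroblasts, beside 11725 of all 20129 tested genes, and the median effect went from 0.97 to 0.12 against 0.04 over all genes. Their basophilic diets were apart upwards in 54 and downwards in 10. Of the 555 that fell, 370 were below 0, beside 8329 of all tested genes, and the median went from -0.83 to -0.08; the diets were apart downwards in 109 and upwards in 27. By the fits above, 60 of the 810 had a stage difference, 151 kept the effect, and for 599 neither was established. The selection on the proerythroblast effect itself makes those medians larger in that stage.

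None of 21 tested selenoproteins passed for the stage difference, and their median was 0.20; the block within each stage gave 2 above 0, Selenow and Selenoi. Selenow, a small redox selenoprotein whose transcript is known to follow selenium supply, fell by 1.29 in proerythroblasts (limma adjusted p = 0.00129) and was 0.29 lower in basophilic erythroblasts. Its difference of 0.99 had a limma adjusted p of 0.0968, which was 0.0482 without replicate 2 of both basophilic groups and 0.0412 with the block within each stage. Gpx1, the cytosolic glutathione peroxidase, was 0.39 lower in each stage, with a difference of 0.00 (SE 0.23) and an averaged effect that did not pass (limma adjusted p = 0.113). Gpx4, the peroxidase of membrane lipids, stood 0.15 and 0.49 higher. Selenot and Selenos, both of the endoplasmic reticulum, and Selenoi, of phospholipid synthesis, had differences of 0.51, 0.94 and 0.90 that did not pass, Selenos passing without replicate 2 of both basophilic groups (limma adjusted p = 0.00925). The other selenoproteins, Selenoo, Gpx2, Selenoh, Sephs2, Selenon, Selenof, Txnrd3, Dio2, Txnrd2, Txnrd1, Msrb1, Selenom, Selenop, Gpx3 and Selenok, had differences between -0.38 and 0.37. Of 10 tested genes of selenocysteine synthesis none passed for the difference, and Pstk, which phosphorylates the selenocysteine transfer RNA, fell by 0.66 in proerythroblasts (limma adjusted p = 0.0283).

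Erythroid regulators split. Of 21 tested, Nfia passed above 0 and E2f2 below, and the median was -0.42; with the block within each stage 1 passed above and 3 below. Sox6 and Nfe2, transcription factors of terminal maturation, had differences of -1.18 and -1.32 (limma adjusted p = 0.101 and 0.159). In the erythropoietin and STAT5 list of 21, none passed, and with the block 1 passed above 0 and 1 below; Bcl2l1, the survival factor of late erythroblasts, came closest at -1.25 (limma adjusted p = 0.0625). None passed in the lists for p53 targets, interferon response, endoplasmic reticulum chaperones, peroxide and superoxide defence, autophagy, glycolysis, cholesterol synthesis, eicosanoid enzymes, oxidative phosphorylation, proteasome, or BMP and stress erythropoiesis signalling. With the block within each stage 3 autophagy genes passed below 0, as did 1 gene each of the p53, interferon and glycolysis lists. It also gave 2 genes of oxidative phosphorylation above 0, and 1 each of the proteasome, endoplasmic reticulum chaperone, peroxide and superoxide defence, and BMP lists. Cholesterol synthesis and eicosanoid enzymes gave no call with it. Oxidative phosphorylation genes leaned above 0 in 67 of 71, with a median of 0.26, a proerythroblast median of -0.11 and a basophilic median of 0.16.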

How the data were processed

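RNA of sorted splenic erythroblasts (5 ng per sample) was labelled with an Affymetrix whole-transcript kit and read on 12 arrays. The authors deposited log2 values made with Affymetrix Expression Console, per the submitters' processing notes; the normalization and annotation settings are not given in the sources used here. Depth does not apply to arrays, and precision is limited by the 3 arrays per group. Of 72688 features, 186 were controls, 31258 named a single gene, 1492 several and 39752 none. The feature with the highest mean stood for each of 30701 genes, and 20129 with values of at least 5.3 (the median) on at least 3 arrays were tested.

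Group means were fitted with limma 3.58.1 (R 4.3.3), with moderated variances and Benjamini-Hochberg adjustment over all tested genes; intervals are 95%. The procedure was run on simulated data, where it recovered 58% of differences of size 1 and 100% of those of size 2. The simulated errors were independent, with 1 standard deviation per group. Arrays that deviate together and genes that differ in variance were therefore not covered. The genes described are the 12 highest and 12 lowest differences, 8 with opposite directions, 8 highest and 8 lowest kept, all selenoproteins, and up to 4 per list with the smallest p. Genes named outside that rule (Sox4, Las1l, Tfrc and those named with a promoter match or in every alternative) were chosen after their values were seen. Members and lists were chosen with earlier results of these data known.

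Same-numbered arrays of both diets deviated together in basophilic erythroblasts (correlations 0.54 to 0.782) and less so in proerythroblasts (0.18 to 0.524). Across stages the correlations ran from -0.165 to 0.276, which overlaps the range in proerythroblasts. What the shared deviations come from was not tested. The labels do not say that equal numbers mark a shared animal or day, so the main fit has no block. A block by replicate number within each stage was run as an alternative. Its values are given beside the lists described where it moves the counts given. For genes they are given mainly where it moves the call for the stage difference.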

Additional observations from a re-analysis of the deposited data

Results flagged for a closer look

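The diet effects of 36 named genes differed between the stages by the test of the difference itself (limma, Benjamini-Hochberg). The differences above 0 were 2.41 for Sh2d4a, 2.15 for Myb, 2.13 for Kit, 1.83 for Prelid2, 1.76 for Sfrp4, 1.76 for Itga5, 1.73 for Hsph1, 1.66 for Eng, 1.52 for Cd248, 1.44 for Wdsub1, 1.36 for Nfia and 1.34 for Rab4a. Smaller ones were 1.18 for Qtrt1, 1.12 for Utp15, 1.11 for Pgd, 1.08 for Sox4 and 1.07 for Naa25. Those below 0 were -2.49 for Gch1, -2.16 for Adgrg2, -2.15 for Fhdc1, -2.11 for Cdc25b, -2.03 for Hbq1b, -1.88 for Hbq1a, -1.88 for Tmod1, -1.67 for Alas2, -1.58 for E2f2, -1.55 for Slc6a9, -1.52 for Afmid and -1.52 for Ptp4a3. Smaller ones were -1.47 for Ppp1r15a, -1.39 for Slc25a37, -1.37 for Slc4a1, -1.28 for Mcmdc2, -1.18 for Fech, -1.16 for Ranbp10 and -1.06 for Esco2. Groups of 3 arrays are too small to tell an outlying array from ordinary spread in a single gene. Counts from fits that leave out each array in turn are given below.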

How the results depend on the processing

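All alternatives were run on the same genes and arrays unless stated. None of the 61 stage differences, and none of the averaged effects of the 240 kept genes, changed sign under any of them. Counts are given in the order stage difference (61), averaged effect (515), proerythroblasts (810), basophilic erythroblasts (4), kept (240), and, within the 61, lost (43), opposite (10), same direction (8) and apart only in basophilic erythroblasts (0). Leaving out each array in turn gave 12 to 282, 245 to 1503, 314 to 1807, 0 to 289, 136 to 885, 5 to 109, 1 to 108, 5 to 37 and 0 to 28. The high end of the stage difference, 282 genes, came without deficient basophilic replicate 2, while each of the other arrays left 36 or fewer. Without replicate 2 of both basophilic groups the counts were 700, 2302, 3292, 420, 1398, 179, 316, 108 and 97, where 2 arrays per basophilic group overlap less easily. Array weights gave 483, 2468, 8010, 155, 364, 339, 58, 25 and 30; their estimation stopped before converging.

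The replicate block within each stage gave 589 genes for the stage difference, 2046 averaged, 2233 in proerythroblasts, 292 in basophilic erythroblasts, and 446 lost, 61 opposite, 28 the same direction and 34 apart only in basophilic erythroblasts. A random replicate block gave 186, 938, 1236 and 22, with classes of 132, 34, 15 and 5. A replicate block by number over both stages gave 64 for the difference, 876 averaged, 19 in basophilic erythroblasts and 1 apart only there. An adjusted p of 0.1 gave 174, 931, 1286 and 7, with classes of 123, 34, 14 and 3.

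Quantile normalization gave 24 genes for the difference (7 above and 17 below 0, against 32 and 29), 56 in basophilic erythroblasts, and classes of 18 lost, 2 opposite and 4 the same direction. Median centring gave 67 (42 above and 25 below 0), 2 in basophilic erythroblasts and 4 of the same direction. No filter gave 38, of which 25 were lost and 6 opposite, and trended variance gave 6 opposite. Fits to the arrays of a single stage gave 2419 genes in proerythroblasts and 0 in basophilic erythroblasts. For basophilic erythroblasts limma with all arrays gave 1305 of 20129 tested genes at an unadjusted p under 0.05, and 4 after adjustment. Sorting the 61 by sign and size gave 31 opposite. The stricter filter, robust variance and the mean of a gene's features moved none of these counts by over 1.5 times. The causes were not tested.

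Of 899 comparisons over the 36 named genes past the threshold, 626 stayed past it and 273 did not. The spread of the deficient basophilic arrays limits what that stage can show.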

Other observations

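Genes with diets apart only in basophilic erythroblasts gave no call with all 12 arrays. Of the 379 genes that passed for the stage difference both without replicate 2 of both basophilic groups (54.1% of 700) and with the block within each stage (64.3% of 589), 16 were of this kind over all 12 arrays, beside 290 lost, 48 in opposite directions, 18 in the same direction and 7 in neither stage apart. Hadh, an enzyme of mitochondrial fatty acid oxidation, had diet effects of 0.09 in proerythroblasts and 1.82 in basophilic erythroblasts. Its difference of 1.73 had a limma adjusted p of 0.144 with all arrays, 0.00726 without replicate 2 of both basophilic groups and 0.00577 with the block. Plxnc1, a semaphorin receptor, had effects of 0.07 and 1.90, and Ehd1, of endosome recycling, effects of -0.08 and 0.71. Sgk3, a kinase, had effects of 0.16 and -1.0, and Wipi1, an autophagy factor, effects of 0.22 and -0.75. These genes were chosen after their values were seen.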
